A study of Mus musculus with 10 samples.

Results

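Tenascin C, the receptor-type phosphatase gene Ptprz1, the membrane-anchored partner gene Cntn1, the ligand genes Ptn and Mdk, and the chondroitin sulfate proteoglycan genes Ncan, Bcan, Vcan and Cspg5 were followed through 10 bulk RNA-seq libraries of embryonic mouse cortex. These 9 genes were listed by symbol, with earlier results of these data known, and found by their Entrez gene IDs among the 27178 IDs of the deposited table. All 9 passed the filter on low counts. The study asked how loss of the secreted matricellular protein CCN1, or an excess of CCN1 or of the cell-surface heparan sulfate proteoglycan GPC4, changes the transcripts of cortical neural stem cells and their progeny.

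The libraries fell into 5 groups of 2, all from sorted GFP-positive cerebral cortex cells. WT and CcKO were C57BL/6 embryos collected at embryonic day 17.5 (E17.5). CcKO carried Nestin-Cre and Ccn1fl/fl, WT was wild type, and both had received PB-Ctrl, the control PiggyBac plasmid, by electroporation at E14.5. PB-Ctrl, PB-CCN1 and PB-GPC4 were wild-type ICR embryos named for the plasmid they had received at E13.5, and were collected at E15.5. Every group had also received a plasmid for the PiggyBac transposase, which inserts the plasmid cargo into the genome (3 µg/µl, against 1.5 µg/µl of the PiggyBac plasmid). Nestin-Cre recombines in neural progenitors and is inherited by the cells they produce, while electroporation reaches only some cells lining the ventricle. The labels do not say whether the libraries of a group came from separate embryos or litters, and p-values therefore describe spread between libraries, which may be technical. In bulk RNA, fewer cells of a type and less RNA per cell cannot be told apart.

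The proteins form a meshwork around neural progenitors. Tenascin C is a large secreted glycoprotein made by radial glia, the stem cells of the embryonic cortex. The lecticans neurocan, brevican and versican (Ncan, Bcan and Vcan) carry chondroitin sulfate chains, hold hyaluronan at one end of the core protein and bind tenascins at the other. PTPRZ1 is itself a chondroitin sulfate proteoglycan as well as a receptor, and it binds tenascins, contactin-1 and the growth factors pleiotrophin (Ptn) and midkine (Mdk). Its secreted extracellular form is known as phosphacan. Counts per gene do not separate phosphacan from the receptor, nor the splice forms of tenascin C, versican and brevican.

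Total counts ran from 22505945 to 30825498 per library. The targeted genes followed the labels: in CPM, counts scaled to library size, Ccn1 stood at 14.9 ± 3.9 in WT but at 1.89 ± 1.7 in CcKO (SD, n = 2), and at 53.9 ± 4.8 CPM in PB-Ctrl against 7051 ± 67 CPM in PB-CCN1. Gpc4 stood at 68.3 ± 3.1 CPM in PB-Ctrl and 5061 ± 80 CPM in PB-GPC4, with plasmid and endogenous transcripts counted together. Ccn1 was also lower in PB-GPC4 (33.0 ± 4.5 CPM) than in PB-Ctrl (log2 fold change -0.71, SE 0.12, edgeR adjusted p = 0.000488). The cortex markers Emx1, Emx2 and Lhx2 were expressed in all 5 groups, with group means of 117 to 162 CPM for Emx1, 45.0 to 52.4 CPM for Emx2 and 639 to 723 CPM for Lhx2. Among markers of other cells that a sort could hold, the summed level of 4 Cajal-Retzius markers was 19.2 to 21.4 CPM in WT and 43.7 to 64.8 CPM in CcKO, and that of 7 endothelial and pericyte markers was 7.76 to 10.95 CPM in WT and 14.6 to 15.1 CPM in CcKO. For 4 erythroid markers it was 3.57 to 4.78 CPM in WT and 12.8 to 12.9 CPM in CcKO, and for 6 interneuron markers 42.5 to 54.4 CPM and 54.9 to 65.96 CPM. The 6 microglia markers summed to between 2.07 and 7.61 CPM over the 10 libraries. Reln alone made up most of the Cajal-Retzius sum, at 18.8 CPM in WT and 51.5 CPM in CcKO. Trp73 was at 1.09 and 1.56 CPM and Lhx5 at 0.33 and 0.98 CPM, and neither was called. The part of these cells in the CcKO results was not tested.

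Per unit of length, the ligands were the most abundant transcripts of the 9 and contactin-1 the least. In FPKM, which scales counts by gene length and library size, mean levels in WT were 359 ± 16 for Ptn, 259 ± 0.78 for Mdk, 66.5 ± 6.8 for Ptprz1, 52.5 ± 1.7 for Ncan and 24.9 ± 2.3 for Tnc (SD, n = 2). Cspg5 followed at 17.6 ± 0.92 FPKM, Bcan at 6.67 ± 0.93 FPKM, Vcan at 5.52 ± 0.67 FPKM and Cntn1 at 1.41 ± 0.085 FPKM. Among all tested genes of WT, the mean level of Ptn lay at percentile 98.9 and that of Tnc at percentile 76.8. In PB-Ctrl the order began with Mdk at 215 ± 5.1 FPKM and Ptn at 175 ± 5.9 FPKM, then ran through Ptprz1 at 77.8 ± 0.092, Ncan at 64.4 ± 2.0, Tnc at 18.3 ± 0.11, Vcan at 8.45 ± 0.60, Bcan at 7.08 ± 0.31, Cspg5 at 5.23 ± 0.29 and Cntn1 at 0.863 ± 0.22 FPKM. Neighbours in the order did not overlap in their 2 libraries, apart from Vcan and Bcan in CcKO and Bcan and Cspg5 in PB-CCN1.

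**Figure D1:**
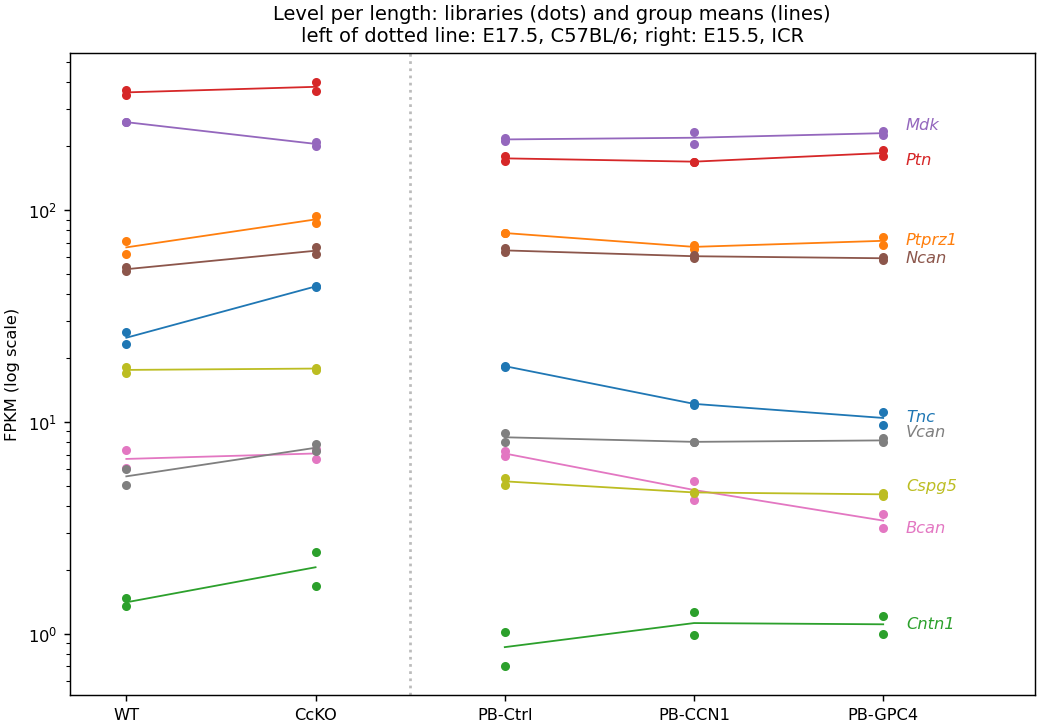
Level per length of the 9 genes (vertical axis, FPKM on a log scale) in each library (dots), with lines joining the group means within the E17.5 experiment (WT, CcKO) and within the E15.5 experiment (PB-Ctrl, PB-CCN1, PB-GPC4). Ptn lies above Mdk in both E17.5 groups and below it in the 3 E15.5 groups, and Cspg5 lies above both Vcan and Bcan in the E17.5 groups only.

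The balance of the ligands differed between the experiments. The ratio of Ptn to Mdk in FPKM was 1.34 and 1.42 in the WT libraries, 1.72 and 2.00 in the CcKO libraries, and between 0.725 and 0.823 in the 6 E15.5 libraries. WT over PB-Ctrl, the ratio of mean FPKM was 3.36 for Cspg5, a transmembrane proteoglycan also called neuroglycan C, 2.05 for Ptn, 1.63 for Cntn1, 1.36 for Tnc and 1.21 for Mdk. It was 0.856 for Ptprz1, 0.815 for Ncan and 0.654 for Vcan. Bcan, at a ratio of 0.943, overlapped between the WT and PB-Ctrl libraries. With all groups included, Ptprz1, Mdk and Ncan also overlapped between the experiments. In CcKO, mean FPKM was 90.1 for Ptprz1 and 205 for Mdk, on the other side of PB-Ctrl from WT, and 64.1 for Ncan. No trend with gene length was removed from these ratios. Strain, age and day of electroporation differ together between WT and PB-Ctrl and cannot be told apart. Markers of other glia moved with them: the summed level of 5 oligodendrocyte precursor markers was 70.5 to 83.5 CPM in WT, 78.6 to 80.9 CPM in CcKO and 1.88 to 3.83 CPM in the E15.5 groups, with Gpr17 at 0 in PB-CCN1, and that of 5 astrocyte markers was 17.9 to 18.5, 22.8 to 24.7 and 2.61 to 4.75 CPM. Their part in the higher Cspg5 and Ptn levels was not tested.

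Differences within each experiment were tested on counts with the edgeR quasi-likelihood F-test over the 15371 genes that passed the filter, and a gene was called when its Benjamini-Hochberg adjusted p was under 0.05. Levels below are CPM after TMM scaling, which corrects for differences in library composition. Of the 9 genes, 5 were higher in CcKO than in WT (Tnc, Ptprz1, Cntn1, Ncan and Vcan) and 1 was lower (Mdk). The background was high, since 30.3% of all tested genes were called in this comparison, 17.4% higher and 12.9% lower. The groups did not overlap for 6 of the 9 genes and for 61.3% of all tested genes. The median log2 fold change was 0.31 for the 9 genes and 0.02 for all tested genes.

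Tnc (Entrez gene 21923, chr4:63959785-64047015, minus strand, GRCm38.p6) rose the most of the 9 in CcKO. Its level was 186 and 163 CPM in the WT libraries and 308 and 309 CPM in the CcKO libraries. Both CcKO libraries lay far above both WT libraries and within 1 CPM of each other. The rise was 1.77-fold, or 0.82 on the log2 scale (SE 0.06, edgeR adjusted p = 7.14e-11). Its receptor Ptprz1 (Entrez gene 19283, chr6:22875315-23052916, plus strand) was at 569 and 491 CPM in WT and at 749 and 704 CPM in CcKO. The groups did not overlap, and the rise was 1.37-fold (log2 fold change 0.45, SE 0.06, edgeR adjusted p = 3.82e-07). Cntn1 (Entrez gene 12805, chr15:92051152-92341967, plus strand), an adhesion molecule held in the membrane by a lipid anchor that binds PTPRZ1, was at 8.96 and 8.21 CPM in WT and at 14.9 and 10.5 CPM in CcKO. The CcKO libraries of this gene of low level stood well apart, and its call (log2 fold change 0.56, SE 0.20, edgeR adjusted p = 0.0286) was lost without CcKO replicate 1 (adjusted p = 0.387), WT replicate 1 (0.0647) or WT replicate 2 (0.179).

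Of the ligands, Mdk was called in CcKO and Ptn was not, and the difference between them was not tested. Mdk (Entrez gene 17242, chr2:91929805-91932297, minus strand), the growth factor midkine, was at 336 and 333 CPM in WT and fell to 259 and 276 CPM in CcKO. Neither CcKO library reached the WT range, and the log2 fold change was -0.32 (SE 0.06, edgeR adjusted p = 4.35e-05). Ptn (Entrez gene 19242, chr6:36714924-36810179, minus strand), the related growth factor pleiotrophin, was at 739 and 692 CPM in WT and at 802 and 735 CPM in CcKO. Its groups overlapped and it was not called (log2 fold change 0.10, SE 0.05, edgeR adjusted p = 0.129), though it passed without CcKO replicate 2 (adjusted p = 0.0346).

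Of the proteoglycans, Ncan and Vcan rose in CcKO while Bcan and Cspg5 did not pass. Ncan (Entrez gene 13004, chr8:70093085-70120863, minus strand), a lectican restricted to the nervous system, was at 380 and 363 CPM in WT and at 439 and 480 CPM in CcKO (log2 fold change 0.31, SE 0.05, edgeR adjusted p = 2.70e-05). Vcan (Entrez gene 13003, chr13:89655309-89743027, minus strand), the largest lectican, was at 87.1 and 73.2 CPM in WT and at 114 and 107 CPM in CcKO (log2 fold change 0.47, SE 0.07, edgeR adjusted p = 1.08e-05). For both, each CcKO library lay above each WT library. Bcan (Entrez gene 12032, chr3:87987531-88002175, minus strand), the lectican with the shortest core protein, was at 22.7 and 27.5 CPM in WT and at 28.2 and 25.6 CPM in CcKO (edgeR adjusted p = 0.592). Cspg5 (Entrez gene 29873, chr9:110243783-110262576, plus strand) was at 69.7 and 64.6 CPM in WT and at 69.2 and 68.6 CPM in CcKO (edgeR adjusted p = 0.773). The groups overlapped for both genes. Annotated genes on the opposite strand overlap Tnc, Vcan and Cspg5, and a miRNA gene on the same strand lies within Ncan. Whether counting used strand is not given in the sources used here, so reads of these partners cannot be told apart from those of Tnc, Vcan and Cspg5.

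**Figure D2:**
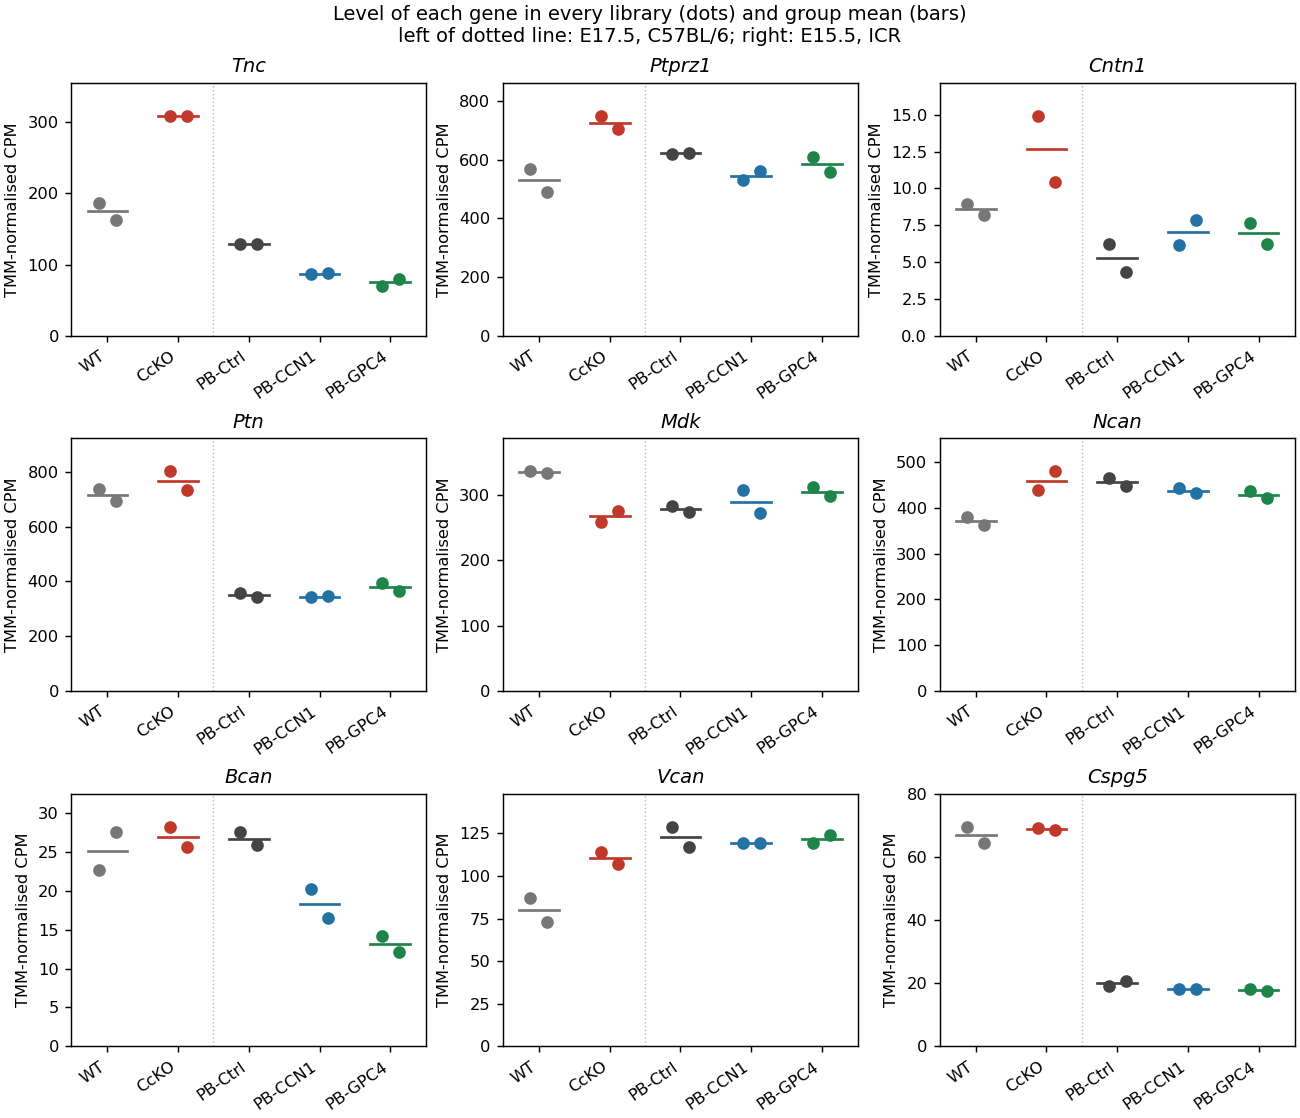
TMM-normalised CPM of each of the 9 genes (vertical axes, starting at 0) in every library (dots) with group means (bars), for WT and CcKO left of the dotted line and PB-Ctrl, PB-CCN1 and PB-GPC4 right of it. Tnc is highest in CcKO at 308 and 309 CPM and lowest in PB-GPC4 at 69.9 and 80.04 CPM, and Bcan steps down from PB-Ctrl through PB-CCN1 to PB-GPC4.

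These 9 transcripts are mostly long, and length moved with the CcKO comparison. Over all tested genes, the log2 fold change of CcKO against WT followed counted length across genes (Spearman's rho = 0.43, a description across genes, which are not independent replicates), from a median of -0.28 in the shortest of 10 equal bins of genes to 0.33 in the longest. The plasmid comparisons showed little of this (rho = -0.09 for PB-CCN1 and -0.07 for PB-GPC4 against PB-Ctrl). Vcan, with 14689 counted bases, lay at percentile 99.6 of length, Ptprz1 with 8068 bases at percentile 95.8, Ncan with 7166 at 93.6, Tnc with 7100 at 93.4 and Cntn1 with 6184 at 89.9, while Mdk with 1306 bases lay at 16.2. The 5 genes that rose were thus the 5 longest of the 9, and the gene that fell was the shortest. With a smooth trend in length and GC content taken out of every library, Tnc still rose by 0.57 on the log2 scale (edgeR adjusted p = 4.48e-08) and Ptprz1 by 0.13 (adjusted p = 0.0406). Ptn, not called before, passed at 0.17 (adjusted p = 0.00847). Cntn1 (0.33, adjusted p = 0.263), Ncan (0.07, adjusted p = 0.337) and Mdk (-0.09, adjusted p = 0.230) no longer passed, and Vcan turned to -0.07 (adjusted p = 0.470). That left 3 of the 9 genes called, with 18.1% of all tested genes called after the same removal.

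**Figure D3:**
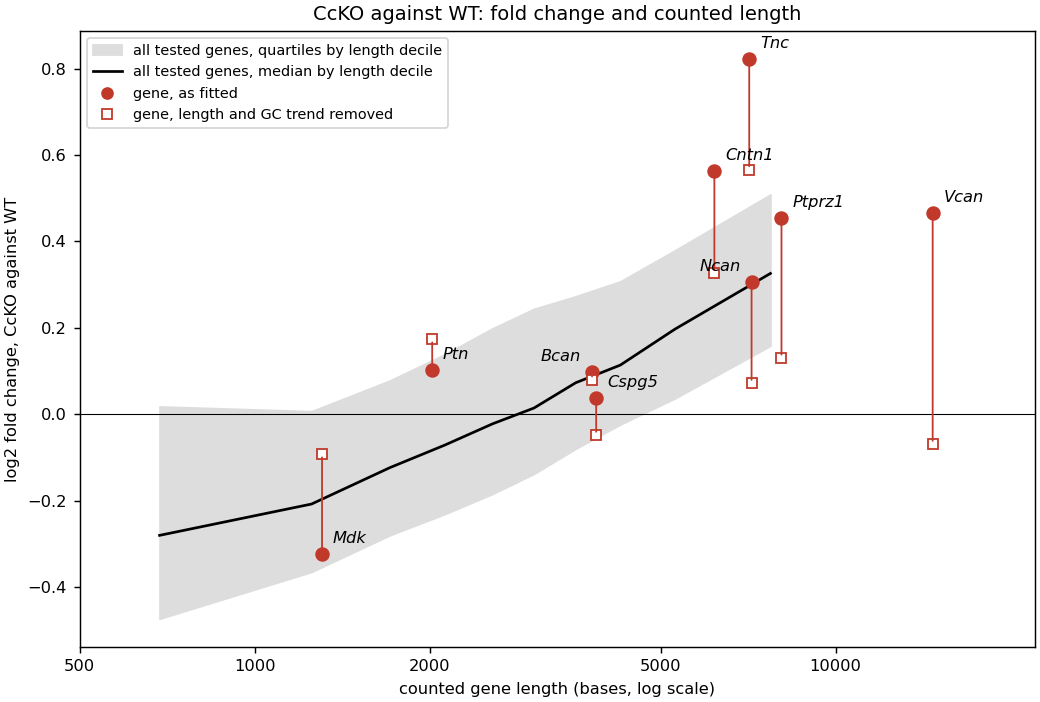
Log2 fold change of CcKO against WT (vertical axis) by counted gene length (horizontal axis, bases, log scale), with the median (line) and quartiles (band) of all tested genes in 10 bins by length, and the 9 genes as fitted (filled) and after removal of the length and GC trend (open). The band and line refer to values as fitted. Tnc moves from 0.82 to 0.57, Vcan moves from 0.47 to -0.07, and Ncan moves from 0.31 to 0.07.

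The CCN1 and GPC4 plasmids were each compared with the same PB-Ctrl libraries, so their values share that reference and are given side by side. Tnc and Bcan fell in both, and the other 7 genes were called in neither. These 2 calls stand against a background of 1.19% of all tested genes called for PB-CCN1 (0.442% higher and 0.748% lower) and 6.36% for PB-GPC4 (3.19% higher and 3.17% lower). The groups did not overlap for 5 of the 9 genes with PB-CCN1, against 45.4% of all tested genes, and for 7 of the 9 with PB-GPC4, against 53.7%. The median log2 fold changes of the 9 genes were -0.06 and -0.09.

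Tnc was at 129 and 128 CPM in PB-Ctrl, at 86.3 and 88.1 CPM in PB-CCN1 and at 69.9 and 80.04 CPM in PB-GPC4. All 4 libraries with an added gene lay below both control libraries. The log2 fold change was -0.56 for PB-CCN1 (SE 0.07, edgeR adjusted p = 6.49e-06), or 0.677 of the control level. For PB-GPC4 it was -0.78 (SE 0.07, edgeR adjusted p = 6.44e-09), or 0.583 of the control level. After removal of the length and GC trend these values were -0.53 and -0.72, and both passed.

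Bcan was at 27.5 and 25.9 CPM in PB-Ctrl, at 20.2 and 16.5 CPM in PB-CCN1 and at 14.2 and 12.1 CPM in PB-GPC4. The 3 groups did not overlap. The log2 fold change was -1.02 for PB-GPC4 (SE 0.12, edgeR adjusted p = 4.67e-06), or 0.493 of the control level, and -0.54 for PB-CCN1 (SE 0.12, edgeR adjusted p = 0.0198). The PB-CCN1 call was lost without PB-CCN1 replicate 2 (adjusted p = 0.397), PB-Ctrl replicate 1 (0.263) or PB-Ctrl replicate 2 (0.121), and with limma on log2 FPKM.

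The promoters of Tnc and Bcan are shown because these were the 2 genes that fell with both plasmids. The sequences come from RefSeq on GRCm38.p6 and run from 250 bases before to 50 bases after the annotated start, on the strand of the gene. The annotated starts of the 2 windows shown lie inside the gene spans given above. The whole Bcan window lies inside its span, short of the upstream end at 88002175. Windows were found for Tnc, Ptprz1, Cntn1, Ptn, Ncan, Bcan and Vcan. Capitals mark the matches among 5 motifs searched on both strands.
Tnc, chr4:64046887-64047186, minus strand: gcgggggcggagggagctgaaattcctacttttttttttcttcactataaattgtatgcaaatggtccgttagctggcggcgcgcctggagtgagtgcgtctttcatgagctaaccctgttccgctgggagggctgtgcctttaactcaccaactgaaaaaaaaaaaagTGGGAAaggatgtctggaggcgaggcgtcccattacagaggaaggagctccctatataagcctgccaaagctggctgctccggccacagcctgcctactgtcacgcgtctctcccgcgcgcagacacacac
Bcan, chr3:88000307-88000606, minus strand: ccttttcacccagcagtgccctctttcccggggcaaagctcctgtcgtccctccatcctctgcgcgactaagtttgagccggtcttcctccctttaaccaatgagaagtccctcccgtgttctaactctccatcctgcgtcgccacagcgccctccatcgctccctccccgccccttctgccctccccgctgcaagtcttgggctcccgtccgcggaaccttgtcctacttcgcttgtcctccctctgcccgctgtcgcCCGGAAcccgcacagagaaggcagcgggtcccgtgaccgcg
The Tnc window held the RBPJ motif TGGGAA, the site of the Notch effector, starting at position -81, and the Bcan window held the ETS motif CCGGAA at position 10, counted from the start site. Of all 32851 promoter windows in the table, 25.6% held TGGGAA and 14.9% held CCGGAA. The other motifs were the TEAD motif GGAATG (14.7% of windows), which can overlap TGGGAA, the AP-1 motif TGANTCA (7.8%) and the GLI motif GACCACCCA (0.3%). The Tnc and Bcan windows shared no motif of the 5. TGGGAA was also found in the windows of Ptn (position -84), Ncan (-209) and Vcan (-187), genes called with neither plasmid. The Ptn and Ncan matches were on the other strand. A Cntn1 window held GGAATG at position 28. TGGGAA was thus not particular to the genes that fell. A second Tnc window, at chr4:64046966-64047265, overlapped the first and held TGGGAA on both strands. Its match at position -2 is the same site as that at -81 in the first window. Its match on the other strand, at position -250, lies outside the first window. The start site of this second window is the upstream end of the Tnc span, 64047015.

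The 7 genes called with neither plasmid had log2 fold changes between -0.19 and 0.41. Ptprz1 was at 621 and 622 CPM in PB-Ctrl, at 531 and 561 CPM in PB-CCN1 and at 609 and 560 CPM in PB-GPC4. Both libraries of each added gene lay below the controls, with log2 fold changes of -0.19 (edgeR adjusted p = 0.124) and -0.09 (adjusted p = 0.397). The PB-CCN1 value passed when the E15.5 libraries were fitted on their own (adjusted p = 0.00113), with no filter on low counts (0.00984) and without any 1 of the 4 E17.5 libraries (0.0349 to 0.0447). Of the ligand genes, Ptn was at 358 and 343 CPM in PB-Ctrl, at 344 and 346 CPM in PB-CCN1 and at 394 and 366 CPM in PB-GPC4. Mdk was at 282 and 274, at 307 and 272, and at 311 and 298 CPM in the same order. Both ligands were above the controls in each PB-GPC4 library without passing (log2 fold changes 0.12 and 0.13, edgeR adjusted p = 0.186 and 0.162), and both passed in the E15.5 libraries fitted alone (adjusted p = 0.0467 and 0.0480) and with no filter (0.0456 and 0.0449). Mdk also passed after removal of the length and GC trend (0.17, adjusted p = 0.0350). Ncan, Vcan, Cspg5 and Cntn1 had log2 fold changes of -0.06, -0.04, -0.15 and 0.41 for PB-CCN1 (edgeR adjusted p from 0.462 to 0.881) and of -0.09, -0.01, -0.17 and 0.39 for PB-GPC4 (edgeR adjusted p from 0.297 to 0.946). Cntn1, the largest of these values, rested on levels between 4.32 and 7.89 CPM whose groups overlapped.

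**Figure D4:**
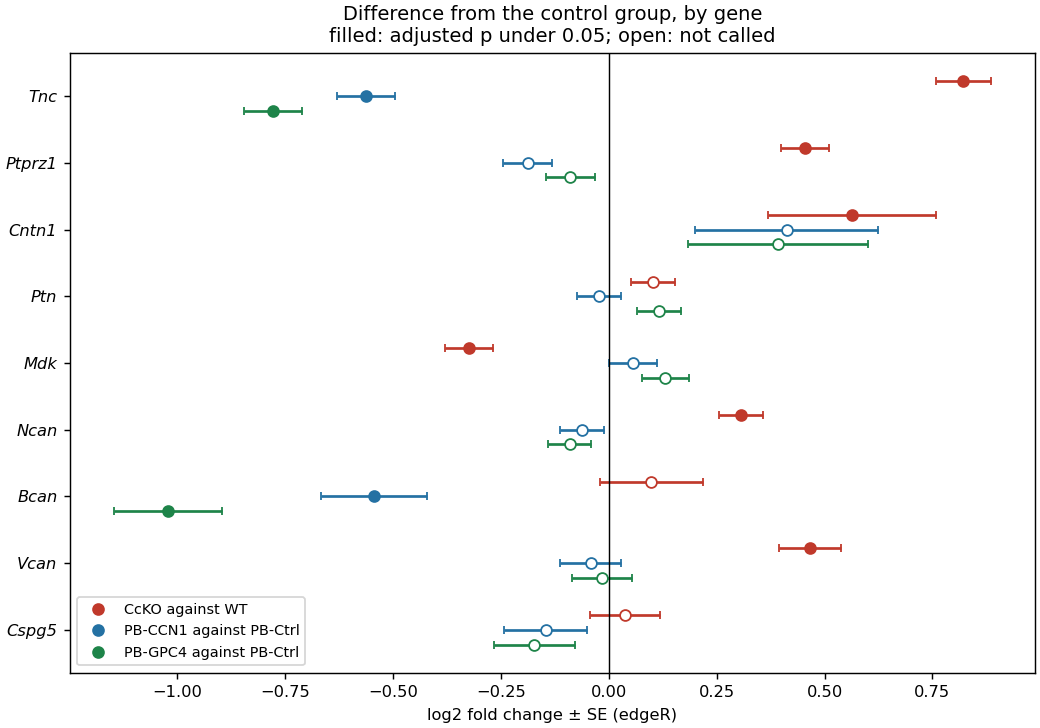
Log2 fold change ± SE (horizontal axis, edgeR) of the 9 genes in CcKO against WT, PB-CCN1 against PB-Ctrl and PB-GPC4 against PB-Ctrl, filled where the adjusted p is under 0.05. Tnc lies at 0.82 in CcKO and at -0.56 and -0.78 with the plasmids, while Bcan lies near 0.10 in CcKO and at -0.54 and -1.02 with the plasmids.

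Set against each other, the CCN1 and GPC4 plasmids differed in 1 of the 9 genes, with 2.15% of all tested genes called, 1.40% higher in PB-CCN1 and 0.755% lower. The groups did not overlap for 3 of the 9 genes, against 46.9% of all tested genes. Bcan was higher in PB-CCN1 than in PB-GPC4, by 0.48 on the log2 scale (SE 0.13, edgeR adjusted p = 0.0467). That call was lost in 11 of 20 alternatives: without PB-CCN1 replicate 1 (adjusted p = 0.507), PB-GPC4 replicate 1 (0.0864) or 2 (0.425), or PB-Ctrl replicate 1 (0.0880) or 2 (0.0861), with DESeq2 (0.0609), relative log expression factors (0.0535) and limma (0.228 and 0.202), and after removal of the length and GC trend without or with the replicate block (0.108 for each). Tnc was higher in PB-CCN1 by 0.22 (SE 0.07) without passing (edgeR adjusted p = 0.0989), and passed in the E15.5 libraries fitted alone (adjusted p = 0.0192).

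Loss and excess of Ccn1 share no library, so the difference between their effects could be tested. The effect of CcKO against WT minus that of PB-CCN1 against PB-Ctrl was called for 6 of the 9 genes, with 23.5% of all tested genes called, 13.7% in the positive and 9.78% in the negative direction. Tnc differed the most, by 1.38 on the log2 scale (SE 0.09, edgeR adjusted p = 1.49e-11), since it rose with loss and fell with excess. Strain, age and day of electroporation differ between these comparisons and cannot be told apart from the direction of the change in Ccn1. Nor can the presence of Nestin-Cre, which only CcKO carried. The loss covered the lineage of Nestin-Cre, and the excess only electroporated cells. Tnc did not run opposite to Ccn1 in every comparison. In PB-GPC4 against PB-Ctrl, the log2 fold change was -0.71 for Ccn1 and -0.78 for Tnc.

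As a sum, and within each experiment only, markers of radial glia, the cells known for Tnc in this tissue, moved with Tnc. The summed level of 9 markers was 861 to 872 CPM in WT and 939 to 1052 CPM in CcKO. With the plasmids it was 910 to 921 CPM for PB-Ctrl, 807 to 815 CPM for PB-CCN1 and 752 to 761 CPM for PB-GPC4, with none at 0. Of the 9, 4 rose in CcKO (Sox2, Nes, Slc1a3 and Aldoc), 2 fell in PB-CCN1 (Nes and Slc1a3) and 6 fell in PB-GPC4 (these and Hes1, Hes5, Fabp7 and Aldoc). Of all tested genes, 17.4% were called higher in CcKO, 0.748% lower in PB-CCN1 and 3.17% lower in PB-GPC4. The other 5 markers were not called in CcKO. Among them Pax6, Hes5 and Vim overlapped WT, and Hes5 had a log2 fold change of -0.13. As a percentage of that sum, Tnc was 18.7 and 21.6 in WT and 29.4 and 32.8 in CcKO. It was 13.9 and 14.2 in PB-Ctrl, 10.6 and 10.9 with PB-CCN1 and 9.19 and 10.6 with PB-GPC4. Fabp7 was the largest part of the sum in WT and CcKO (300 and 320 CPM). The percentages were not corrected for the trend with length. Bcan was 2.81 and 3.02% of the sum in PB-Ctrl. It made up 2.04 and 2.47% with PB-CCN1 and 1.61 and 1.87% with PB-GPC4, with no overlap. Ptprz1, at 56.4 and 66.1% in WT and 66.9 and 79.8% in CcKO, was separated only narrowly. With PB-Ctrl it was 67.5 and 68.2% of the sum, with PB-CCN1 65.1 and 69.5%, which overlapped the control, and with PB-GPC4 74.4 and 80.1%, above it. Markers of other cells also moved in the E15.5 groups. The summed level of the 6 interneuron markers was 17.1 to 17.4 CPM for PB-Ctrl, 11.03 to 11.8 CPM for PB-CCN1 and 10.6 to 10.99 CPM for PB-GPC4. For 8 neuron markers it was 7361 to 7465, 7580 to 7796 and 8041 to 8225 CPM, and for the 4 Cajal-Retzius markers 33.6 to 36.0, 34.5 to 39.9 and 52.2 to 52.4 CPM. The neuron and Cajal-Retzius sums were thus highest with PB-GPC4, and the interneuron sum was below the control with either added gene. Most of the Cajal-Retzius sum was again Reln, at 33.4, 35.1 and 49.9 CPM. In the same order, the 4 erythroid markers summed to 8.29 to 8.91, 4.57 to 5.30 and 8.86 to 11.4 CPM and the 6 microglia markers to 4.28 to 4.68, 2.07 to 3.05 and 6.36 to 7.61 CPM. For 4 intermediate progenitor markers the sum was 994 to 997 CPM in WT and 1031 to 1165 CPM in CcKO, where 1 was called higher. At E15.5 it was 1403 to 1452 CPM for PB-Ctrl, 1300 to 1375 CPM for PB-CCN1 and 1433 to 1463 CPM for PB-GPC4. Among the 8 neuron markers, 5 were called higher and 2 lower in CcKO. The part of these cells and of progenitor number in the results was not tested.

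The genes whose level followed Tnc most closely were sought over the 10 libraries after each experiment was centred on its own mean, among 9326 genes of at least 10 CPM. They were Ptpru (Pearson's r = 0.987), Slc1a3 (0.985), Tanc1 (0.984), Plagl1 (0.970) and Ptgfrn (0.970). Ptpru encodes a receptor-type phosphatase and Slc1a3 the glutamate transporter of radial glia and astrocytes. For Ptprz1 they included Spag9 (0.986), Bach2 (0.982), Ncapg2 (0.981) and Cnot1 (0.980). Within the 9 genes, r was highest between Ptprz1 and Vcan (0.906), then between Ncan and Vcan (0.852) and between Ptprz1 and Ncan (0.851). Tnc had r = 0.819 with Ncan, 0.788 with Ptprz1 and -0.842 with Mdk. The libraries share groups, depth and the trend with length, so these values only describe how the levels ran together.

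Other genes of the same matrix were read from 4 lists, of 74 genes in all, of which 65 were tested. In CcKO 28 were higher and 3 lower, in PB-CCN1 1 was lower, in PB-GPC4 4 were lower, and between PB-CCN1 and PB-GPC4 3 were higher in PB-CCN1. The background percentages are those given above. The median log2 fold change of the 65 genes was 0.22 in CcKO. With the length and GC trend removed, 14 of the 65 were called in CcKO, against 18.1% of all tested genes.

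Of 12 tested matrix partners, 5 rose in CcKO, against 17.4% of all tested genes called higher, and none was called with a plasmid. Tnr, the tenascin of oligodendrocyte lineage cells and some neurons, was at 10.7 and 5.89 CPM in WT and at 31.0 and 23.4 CPM in CcKO. Its groups were far apart, and it rose by 1.73 on the log2 scale (SE 0.21, edgeR adjusted p = 2.23e-07). Has3, a hyaluronan synthase, rose from 1.72 ± 0.16 to 3.19 ± 0.16 CPM (edgeR adjusted p = 0.0258), Fn1, fibronectin, from 156 ± 14 to 188 ± 1.8 CPM (adjusted p = 0.000901) and Fbln1, a fibulin, from 25.5 ± 0.22 to 30.8 ± 3.0 CPM (adjusted p = 0.0363; SD, n = 2). Of these, Has3, Fn1 and Fbln1 did not pass once the length trend was removed, and Fn1 turned to -0.05.

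Of 22 receptors and contactin partners, 13 rose and 2 fell in CcKO, and 2 fell in PB-GPC4. Among all tested genes, 3.17% were lower in PB-GPC4, and 17.4% were higher and 12.9% lower in CcKO. Lrp1, an endocytic receptor that binds midkine, rose by 0.54 on the log2 scale (SE 0.04, edgeR adjusted p = 2.53e-10), Ptprf, a receptor phosphatase of the LAR family, by 0.48 (SE 0.06, adjusted p = 2.40e-07) and Nrcam, an adhesion molecule that binds contactins, by 0.43 (SE 0.06, adjusted p = 3.90e-06). Itgav, an integrin subunit of tenascin and vitronectin receptors, rose from 11.04 ± 1.6 to 18.6 ± 2.2 CPM (edgeR adjusted p = 4.77e-05). Lrp1 and Nrcam did not pass after removal of the length and GC trend. In PB-GPC4, Ptprs, a phosphatase receptor for chondroitin sulfate, fell from 2986 ± 21 to 2733 ± 13 CPM (edgeR adjusted p = 0.0273) and Rtn4r, the Nogo receptor, from 28.2 ± 0.33 to 22.1 ± 2.3 CPM (adjusted p = 0.0478). These calls were lost in 9 and 12 of 20 alternatives, and after removal of the length and GC trend Ptprs stood at -0.0098 on the log2 scale (adjusted p = 0.910).

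Of 21 genes of chondroitin sulfate synthesis and sulfation, 6 rose and 1 fell in CcKO and none was called with a plasmid against control. The CcKO counts were near the background, in which 30.3% of all tested genes were called, 17.4% higher and 12.9% lower. Xylt1, the xylosyltransferase that starts the chain on the core protein, was at 3.28 and 2.35 CPM in WT and at 8.97 and 9.42 CPM in CcKO (log2 fold change 1.71, SE 0.21, edgeR adjusted p = 3.77e-07). Chst3, a sulfotransferase of the chain, was at 3.07 and 1.50 CPM in WT and at 7.24 and 5.14 CPM in CcKO (log2 fold change 1.46, SE 0.27, edgeR adjusted p = 0.000114). The CcKO libraries of both lay above their WT libraries, at low levels. Fam20b, a kinase that phosphorylates the linkage xylose, rose by 0.37 on the log2 scale (edgeR adjusted p = 0.000514) and Chst15, which adds a further sulfate, by 0.28 (adjusted p = 0.00508), the latter not after removal of the length and GC trend. Chpf, a chondroitin polymerising factor, was higher in PB-CCN1 than in PB-GPC4 by 0.28 (SE 0.08, edgeR adjusted p = 0.0426), a call lost in 11 of 20 alternatives (adjusted p up to 0.399), among them leaving out any 1 of the 6 E15.5 libraries.

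Of 10 tested genes for proteases of this matrix and their inhibitor, 4 rose in CcKO, against 17.4% of all tested genes called higher. Adamts1 alone of the 10 was called in every comparison. Adamts1 encodes a secreted protease that cleaves versican and other lecticans. It was at 18.3 and 15.2 CPM in WT and at 22.9 and 24.4 CPM in CcKO (log2 fold change 0.50, SE 0.11, edgeR adjusted p = 0.00121). At E15.5 it was at 32.8 and 34.5 CPM in PB-Ctrl, 23.3 and 22.6 CPM in PB-CCN1 and 13.3 and 11.8 CPM in PB-GPC4. The 3 groups stepped down without overlap, as for Bcan. The log2 fold change was -0.55 for PB-CCN1 (SE 0.11, edgeR adjusted p = 0.00602) and -1.42 for PB-GPC4 (SE 0.11, edgeR adjusted p = 1.91e-09), and PB-CCN1 stood above PB-GPC4 by 0.87 (SE 0.12, edgeR adjusted p = 2.93e-05). The PB-CCN1 call was lost without any 1 of its 4 libraries (adjusted p from 0.0607 to 0.140) and with limma on log2 FPKM (0.122 and 0.142), and the CcKO call without WT replicate 2 (0.0527). Adamts20, a related protease that acts on versican, rose in CcKO from 2.87 ± 0.22 to 5.10 ± 0.086 CPM (edgeR adjusted p = 0.00568) and fell in PB-GPC4 from 8.19 ± 0.50 to 4.62 ± 0.92 CPM (adjusted p = 0.0143; SD, n = 2). The PB-GPC4 call was lost in 5 of 20 alternatives: without PB-Ctrl replicate 1 (adjusted p = 0.0801) or 2 (0.168), without PB-GPC4 replicate 2 (0.208) and with limma (0.0690 and 0.136). Timp3, an inhibitor of these proteases, rose in CcKO by 0.81 on the log2 scale (SE 0.19, edgeR adjusted p = 0.00191), and Adamts9, another versican protease, by 1.85 (SE 0.65, edgeR adjusted p = 0.0322) at levels of 0.285 and 1.01 CPM in WT and CcKO. Adamts20 and Adamts9 did not pass in CcKO after removal of the length and GC trend (adjusted p = 0.162 and 0.0897).

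**Figure D5:**
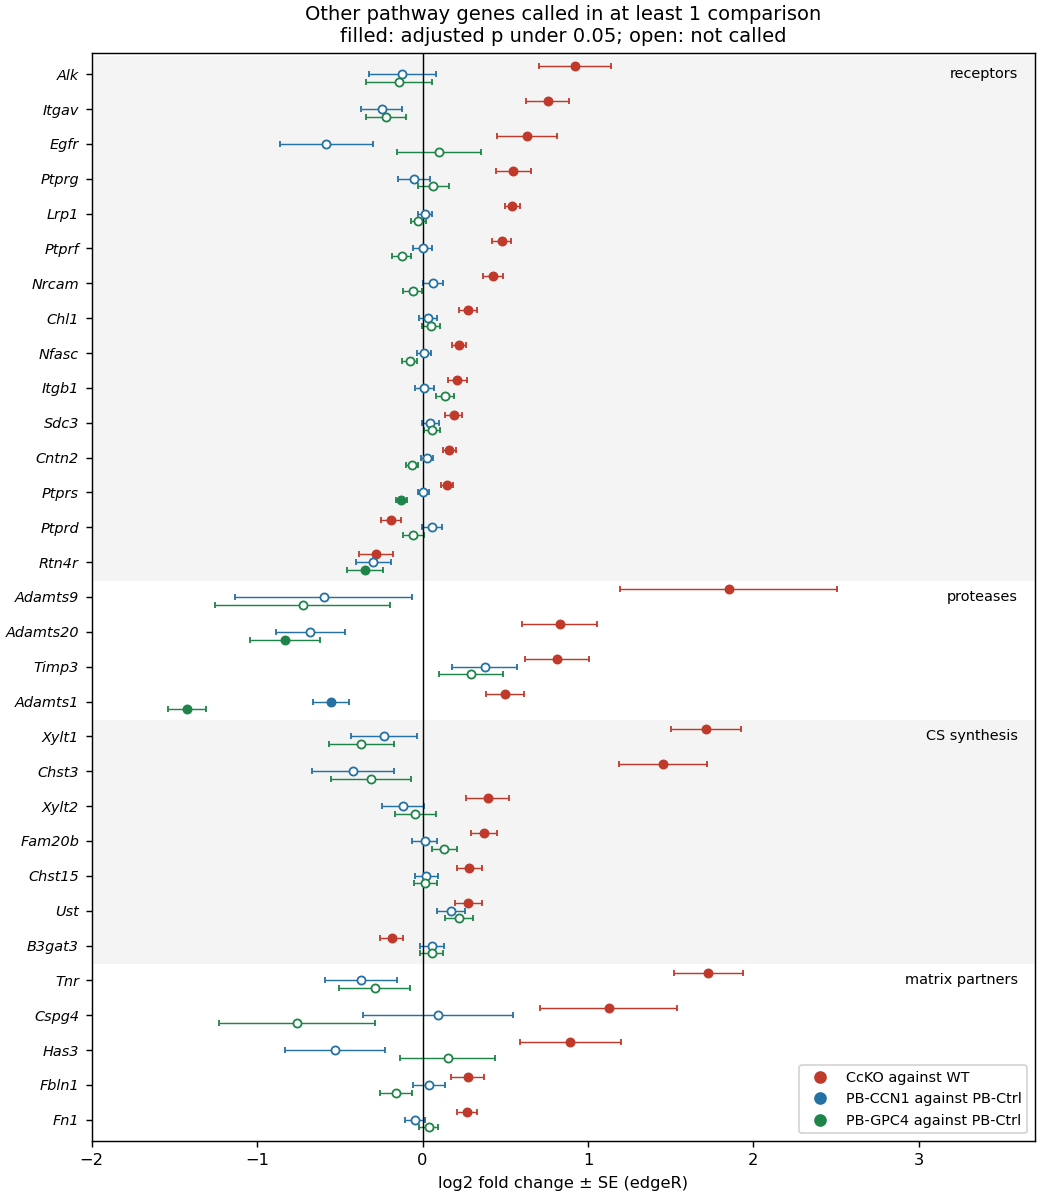
Log2 fold change ± SE (horizontal axis, edgeR) of the 31 other matrix genes called in at least 1 comparison with a control, grouped by list, filled where the adjusted p is under 0.05. Most filled points are CcKO values above 0, and Adamts1 has filled points at 0.50, -0.55 and -1.42.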

How the data were processed

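Sorted cortical cells were profiled by bulk RNA-seq in 10 libraries, 2 in each of 5 groups taken from the labels. Per the submitters' processing notes, the authors used bcl2fastq, Trimmomatic, HISAT2 and featureCounts with the genome build mm10; versions and strand settings are not given in the sources used here. The authors deposited raw counts for each Entrez gene ID, without normalisation, and FPKM, which the authors scaled by gene length and total counts. Each gene's counts and FPKM imply the same whole length in every library, so FPKM adds only length. Symbols were matched for 93.1% of IDs, mostly through RefSeq.

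Tests used the quasi-likelihood F-test of edgeR 4.0.16 in R 4.3.3 on counts (TMM, filterByExpr, 5 group means in 1 model, two-sided, Benjamini-Hochberg over 15371 genes). Group values are means ± SD (n = 2). Replicates differed by more than counting error (chi-square per degree of freedom 3.41 to 9.10). The script was tested on simulated data.

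The 20 alternatives were relative log expression size factors, no filter, a replicate block, each experiment alone, each library left out, the DESeq2 Wald test (DESeq2 1.42.0), limma 3.58.1 on log2 of FPKM plus 1 or plus 0.1, and lowess removal (span 0.3) of a trend with length, with length and GC content, and the latter with the block. GC content was known for 90.4% of tested genes. The genes, lists and tests were chosen with earlier results of these data known. Named genes were the 9, Ccn1 and Gpc4, up to 4 called genes per list and comparison with the smallest adjusted p, and the 5 genes most correlated with Tnc and with Ptprz1, of which 1 is not reported here.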

Additional observations from a re-analysis of the deposited data

Results flagged for a closer look

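The effect of CcKO against WT and that of PB-CCN1 against PB-Ctrl differed for 6 of the 9 genes by a test of the difference itself (edgeR, adjusted over all tested genes, of which 23.5% were called). On the log2 scale the difference was 1.38 for Tnc (0.82 against -0.56, adjusted p = 1.49e-11) and 0.64 for Ptprz1 (0.45 against -0.19, adjusted p = 8.75e-07). It was 0.51 for Vcan (0.47 against -0.04, adjusted p = 0.000437) and 0.37 for Ncan (0.31 against -0.06, adjusted p = 0.00034). For Mdk it was -0.38 (-0.32 against 0.06, adjusted p = 0.000662). For Bcan it was 0.64 (0.10 against -0.54, adjusted p = 0.00689), with Bcan called in PB-CCN1 and not in CcKO. With the length and GC trend removed, the differences of Ncan (0.10, adjusted p = 0.386), Mdk (-0.13, adjusted p = 0.248) and Vcan (-0.10, adjusted p = 0.480) did not pass, while those of Tnc (1.10, adjusted p = 7.73e-10), Ptprz1 (0.28, adjusted p = 0.00259) and Bcan (0.62, adjusted p = 0.0106) did, and that of Ptn, not called before, passed at 0.21 (adjusted p = 0.0326). Bcan did not pass without PB-CCN1 replicate 2 (adjusted p = 0.0633) or with limma on log2 FPKM (0.0530 and 0.0519).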

How the results depend on the processing

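Tnc kept its direction and its call in all 20 alternatives for CcKO against WT and for both plasmids against PB-Ctrl, as did Bcan and Adamts1 for PB-GPC4 against PB-Ctrl. Over 1371 checks of 69 single-gene results, 1160 kept direction and side of the threshold, 147 lost a call, 23 gained one and 41 changed sign. Every value with a changed sign was uncalled in that alternative. With 2 libraries a group, calls near the threshold depend on single libraries. Causes of these differences were not tested.

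The replicate number as a block gave 6, 2, 2 and 1 of the 9 genes called (CcKO against WT, PB-CCN1 and PB-GPC4 against PB-Ctrl, PB-CCN1 against PB-GPC4), as without it, and moved no count of calls by over 1.5 times. Same-numbered libraries did not deviate together (r from -0.016 to 0.018) and share only a number.

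Counts below are in the same order of comparisons. Removing the length trend, or the length and GC trend, left 3 of the 9 genes called in CcKO, 2660 and 2778 of all genes (4663 before) and 13 and 14 of the 65 other matrix genes (31 before). With the block added the counts were 3, 2674 and 14. The length and GC trend removal, with or without the block, left 2 other matrix genes for PB-GPC4, and 0 of the 9 and 1 other between plasmids. Relative log expression factors also left 0 and 1 between plasmids, and DESeq2 0 of the 9. With no filter, 4 of the 9 were called for PB-GPC4, 2 between plasmids, and 2 other matrix genes for PB-CCN1, with 298 of all genes for PB-CCN1 (183 before) and 589 between plasmids (331 before). Each experiment alone gave 537, 2006 and 990 of all genes in the last 3 comparisons (978 before for PB-GPC4), 2, 8 and 6 other matrix genes, and 4 and 3 of the 9 for PB-GPC4 and between plasmids. Limma on log2 of FPKM plus 1 and plus 0.1 called 1 and 0 of the 9 for PB-CCN1 and between plasmids, and 0, 1 and 1 other matrix genes. Of all genes it called 34 and 33 for PB-CCN1, 341 and 319 for PB-GPC4, and 76 and 82 between plasmids.

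Leaving out 1 library gave 5 to 7, 1 to 3, 2 and 0 to 2 of the 9 genes, 17 to 30, 0 to 1, 1 to 6 and 1 to 4 other matrix genes, and 2919 to 4585, 56 to 283, 284 to 1475 and 77 to 596 of all genes. The difference of effects was called for 5 to 6 of the 9.

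The log2 values that changed sign follow. Leaving out 1 library, CcKO against WT ran from -0.030 to 0.25 for Bcan and -0.015 to 0.097 for Cspg5. PB-CCN1 against PB-Ctrl ran from -0.038 to 0.14 for Mdk, -0.061 to 0.0045 for Ptn and -0.12 to 0.024 for Vcan, and PB-GPC4 against PB-Ctrl from -0.077 to 0.064 for Vcan (0.0096 with no filter). PB-CCN1 against PB-GPC4 ran from -0.17 to 0.18 for Cntn1, -0.17 to 0.0088 for Mdk, -0.0092 to 0.055 for Ncan and -0.015 to 0.056 for Cspg5. The difference of effects ran from -0.15 to 0.38 for Cntn1. With the length trend, the length and GC trend, and the latter with the block removed, CcKO against WT was -0.056, -0.070 and -0.069 for Vcan, -0.048, -0.049 and -0.049 for Cspg5 and -0.049, -0.032 and -0.032 for Fn1. Vcan was 0.036, 0.031 and 0.031 for PB-CCN1, 0.067, 0.023 and 0.024 for PB-GPC4, and -0.093, -0.10 and -0.10 in the difference of effects, where Cntn1 was -0.094, -0.10 and -0.13. The length and GC removal without and with the block gave -0.017 and -0.017 for Ncan and 0.0072 and 0.0065 for Vcan between plasmids.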
